A study of Mus musculus with 5 samples.

Results

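The SOX and T-box genes code for 2 families of transcription factors that direct the formation of tissues in the embryo. A fixed list of 35 mouse genes was followed, 19 SOX genes and 16 T-box genes. Of these, 34 (all except Sox1) have a record in the annotation GENCODE vM1. It holds 22350 protein-coding genes on autosomes or chromosome X. RING1B, the subunit of Polycomb Repressive Complex 1 (PRC1) that ubiquitinates histone H2A, was mapped by ChIP-Seq in mouse embryonic fibroblasts (MEFs) that all carried floxed EED alleles. Peak lists were read for 3 of the 5 libraries, with 1 library per group: the parental line (control), the line stably expressing human EZHIP, and the line stably expressing H3.3 K27M (called K27M here), both from lentiviral vectors with the EF1a promoter. The H3.3 K27R line and the EED deletion line, which was a single clone, were not analysed here. Nothing in the sources used here says whether the transduced lines were clones. The lists hold positions of peaks (mm9) without a read number or a score, so depth is unknown and neither the cell type nor the transgenes can be checked in them. A peak that is narrower in all cells and one that is present in fewer cells cannot be told apart. There are no replicates, and a gene without a peak is one at which the authors' caller listed none.

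SOX proteins bind DNA through an HMG box and T-box proteins through the T domain. Both families hold factors that select cell fates, among them neural progenitors for SOXB1 and the heart, limbs and mesoderm for many T-box factors. In cells of another fate such genes are classical targets of Polycomb repression. PRC2 methylates histone H3 at lysine 27, PRC1 can bind this mark, and CpG-rich starts of silent developmental genes are known sites of both complexes. EZHIP and H3.3 K27M inhibit PRC2, so peaks at these genes were compared between the control and the transduced lines to see where RING1B was still called. The study itself reported no change in the number or general distribution of RING1B in either transduced line. The deposited lists read here hold 821 control, 311 EZHIP and 286 K27M peaks. Why the lists differ in number was not tested.

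A gene was counted as having a peak when a peak overlapped its body or lay within 5000 bases of its start in GENCODE vM1. This annotation has no record named Sox1. The start of Sox1 was therefore placed by an exact and single match of its RefSeq promoter to the NCBIM37 sequence, the assembly behind mm9, at position 12395519 of chromosome 8, inside the annotated gene Gm5607. Counts are given over the 34 annotated members, and again with Sox1.

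In the control, 10 of the 34 members had a RING1B peak, and the background over all protein-coding genes was 3.81%. In the EZHIP list 4 of the 34 had a peak (background 1.32%), and in the K27M list 5 of the 34 (background 1.21%). No member had a peak in a transduced line without a control peak, which was the case at 47 of the 22350 protein-coding genes. With Sox1, the numbers were 11, 5 and 6 of 35. Members with a peak in all 3 lists were Sox1, Sox2, Sox21 and Tbx20. A control peak alone was found at Sox9, Sox12, Tbx1 and Eomes. Of the 10 annotated members with a control peak, 30.0% thus had a peak in both transduced lines and 40.0% in neither, against 20.1% and 62.3% of the 851 protein-coding genes with a control peak.

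To show the sequence that RING1B peaks cover at these genes, the 250 bases before the gene start are printed for the annotated member of each family with the widest control peak among those in all 3 lists, the widest among those in the control alone, and the first by name without any peak, in that order. Sox12 and Sox11 are shown in place of Sox9 and Sox10, which this rule picks but which have no entry in the promoter table used. Sox1, whose control peak is wider than that of Sox2, follows separately because GENCODE vM1 does not annotate it. Sequences come from RefSeq (table build GRCm38.p6), positions are their exact matches in NCBIM37, and capitals mark every CpG.

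Sox2 (chr3:34548667-34548916, plus strand): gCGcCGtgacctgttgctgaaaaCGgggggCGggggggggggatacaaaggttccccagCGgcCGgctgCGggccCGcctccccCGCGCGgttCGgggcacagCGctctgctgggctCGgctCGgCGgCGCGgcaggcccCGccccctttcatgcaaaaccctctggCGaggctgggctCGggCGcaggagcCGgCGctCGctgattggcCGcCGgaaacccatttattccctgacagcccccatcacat
Sox12 (chr2:152223783-152224032, minus strand): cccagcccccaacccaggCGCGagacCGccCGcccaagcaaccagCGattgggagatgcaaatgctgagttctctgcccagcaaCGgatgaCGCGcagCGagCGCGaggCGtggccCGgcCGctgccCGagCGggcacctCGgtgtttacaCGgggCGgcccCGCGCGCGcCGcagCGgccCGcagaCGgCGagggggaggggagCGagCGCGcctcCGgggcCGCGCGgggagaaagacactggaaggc
Sox11 (chr12:28027584-28027833, minus strand): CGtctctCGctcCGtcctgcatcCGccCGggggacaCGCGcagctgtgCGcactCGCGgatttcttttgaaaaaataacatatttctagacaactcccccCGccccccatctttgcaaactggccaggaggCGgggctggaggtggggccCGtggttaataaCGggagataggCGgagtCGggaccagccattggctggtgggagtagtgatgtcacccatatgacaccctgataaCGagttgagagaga
Tbx20 (chr9:24578748-24578997, minus strand): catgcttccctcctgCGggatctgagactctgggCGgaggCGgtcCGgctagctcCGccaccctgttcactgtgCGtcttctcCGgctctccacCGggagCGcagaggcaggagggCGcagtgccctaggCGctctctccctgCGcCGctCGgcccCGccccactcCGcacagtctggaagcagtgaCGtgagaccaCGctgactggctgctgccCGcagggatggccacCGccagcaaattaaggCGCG
Tbx1 (chr16:18590765-18591014, minus strand): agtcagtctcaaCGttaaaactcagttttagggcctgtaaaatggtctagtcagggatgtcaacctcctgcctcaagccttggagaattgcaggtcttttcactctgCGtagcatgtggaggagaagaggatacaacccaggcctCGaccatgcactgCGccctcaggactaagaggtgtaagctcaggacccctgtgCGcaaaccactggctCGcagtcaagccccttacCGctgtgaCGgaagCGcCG
T (chr17:8627038-8627287, plus strand): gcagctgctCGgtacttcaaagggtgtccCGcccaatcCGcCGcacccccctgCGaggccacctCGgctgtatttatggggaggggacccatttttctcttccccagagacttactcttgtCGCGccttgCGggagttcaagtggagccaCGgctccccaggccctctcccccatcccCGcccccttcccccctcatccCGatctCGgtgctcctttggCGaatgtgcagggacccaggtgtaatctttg

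The Sox2, Sox12, Tbx20 and Tbx1 pieces lie inside control peaks, and those of Sox11 and T do not. The Tbx1 piece precedes the more distal RefSeq start, at -2651 bases from the GENCODE start. The pieces hold 27 CpGs for Sox2, 35 for Sox12, 17 for Sox11, 22 for Tbx20, 10 for Tbx1 and 14 for T, against a median of 8 over all protein-coding genes, where the motif CG (which reads the same on both strands) occurred at least once in 92.5% of such pieces. Sox12, with the most CpGs of the 6, lost its peak in both transduced lines, and Sox11 had 17 CpGs without a peak in any list.

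The next sequence placed Sox1, and holds 29 CpGs.

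Sox1 (chr8:12395269-12395518, plus strand): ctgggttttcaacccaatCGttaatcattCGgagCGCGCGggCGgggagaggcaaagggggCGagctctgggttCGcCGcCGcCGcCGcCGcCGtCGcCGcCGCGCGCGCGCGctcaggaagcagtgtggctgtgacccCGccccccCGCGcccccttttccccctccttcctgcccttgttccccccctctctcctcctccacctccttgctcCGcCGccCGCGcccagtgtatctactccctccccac

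**Figure D1:**
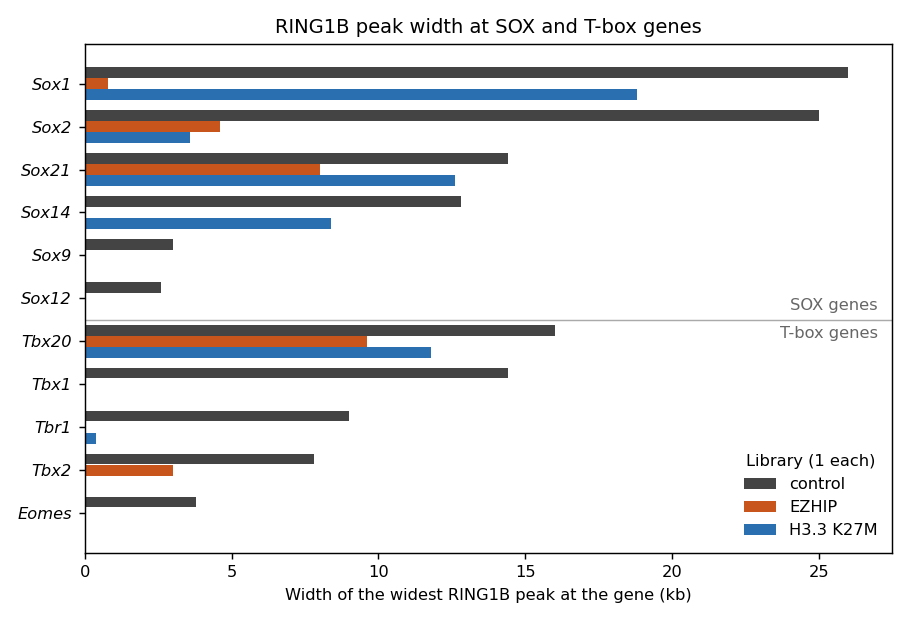
Width in kb of the widest RING1B peak at each SOX and T-box gene with a peak in any list, as bars for the control, EZHIP and K27M libraries (1 each, no replicates). A missing bar is a list without a peak at that gene. Every EZHIP and K27M bar is shorter than the control bar of the same gene.

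The SOXB1 genes mark neural progenitors, and Sox2 also maintains pluripotent cells. Sox1 had the widest control peak of all members, 25999 bases at chr8:12382401-12408399. The EZHIP list held 799 bases there (chr8:12390801-12391599), and the K27M list 18799 bases (chr8:12384201-12402999). The K27M peak was 0.723 times as wide as the control peak and the EZHIP peak 0.0307 times, the largest contrast between the transduced lines among these genes. CpG-island-like sequence was taken as windows of 500 bases that reached 55% G and C and 0.65 for observed over expected CpGs. All 6600 such bases of the Sox1 control peak lay inside the K27M peak, and 6.05% of them inside the EZHIP peak.

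Sox2 had a control peak of 24999 bases at chr3:34539601-34564599, which spanned the whole gene and part of the overlapping transcript Sox2ot. Its EZHIP peak had 4599 bases (chr3:34550201-34554799) and its K27M peak 3599 bases (chr3:34549801-34553399). Sox2 was the only member with a peak in all 3 lists at which the K27M peak was the narrower one, at 0.144 times the control width against 0.184 times for EZHIP. Neither peak reached the start of Sox2: the EZHIP peak began 1274 bases and the K27M peak 874 bases downstream of it, and both ran past the end of this gene of 2.46 kb. Sox3, the X-linked SOXB1 gene, had no peak, and its nearest control peak was 2966 kb away.

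The SOXB2 genes Sox14 and Sox21 code for repressors that act in neuronal differentiation. Sox21 kept a peak over its start in each list, with 14399 bases in the control (chr14:118624401-118638799), 7999 bases with EZHIP and 12599 bases with K27M. Sox14 had 12799 bases in the control (chr9:99766601-99779399) and 8399 bases in the K27M list, and no EZHIP peak by the rule used here. An EZHIP peak of 1999 bases did lie inside the same control peak, from 6.86 to 8.86 kb downstream of the start, 1.86 kb beyond the limit. At Sox14 the K27M peak began 664 bases downstream of the start.

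The other SOX peaks were under 5000 bases wide and were listed only in the control. Sox9, the factor of cartilage and testis formation, had 2999 bases (chr11:112641601-112644599), and Sox12, a SOXC gene, had 2599 bases (chr2:152222201-152224799). Both peaks lay over the gene start, and the nearest EZHIP peaks were 3765 kb from the Sox9 and 2530 kb from the Sox12 gene region. The Sox12 peak was CpG-island-like over 100% of its bases and the Sox9 peak over 73.3%.

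No peak in any list was assigned to the SOXC genes Sox4 and Sox11, to the SOXD genes Sox5, Sox6 and Sox13, to Sox8 and Sox10 of SOXE (Sox10 being a factor of neural crest and glia), to the SOXF genes Sox7, Sox17 and Sox18, which act in endothelium and endoderm, or to Sox15 and Sox30. The rule favours long genes, yet the longest bodies among the members, those of Sox5 (954 kb) and Sox6 (567 kb), held no peak. The nearest control peaks to these genes were from 142 kb away at Sox15 to 9802 kb at Sox11.

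Among the T-box genes, Tbx20, a factor of heart development, had a peak over its start in all lists. Its width was 15999 bases in the control (chr9:24571001-24586999), 9599 bases in the EZHIP list (0.600 times) and 11799 bases in the K27M list (0.737 times). Tbx1, which is required in the pharyngeal arches, had 14399 bases in the control (chr16:18580401-18594799), as wide as the control peak of Sox21, and no peak in either transduced line. Among all protein-coding genes with a control peak of 10000 bases or more, 43 of 221 (19.5%) likewise had a peak in neither line. The 4 other annotated members in this width class, Sox2, Sox14, Sox21 and Tbx20, had a peak in at least 1 line.

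Tbx2, a repressor in the heart and limb, was the member with an EZHIP peak and no K27M peak. The control peak had 7799 bases (chr11:85645201-85652999) and the EZHIP peak 2999 bases, from 948 to 3946 bases downstream of the start and over introns for 2581 of its bases. Tbx4, its neighbour and a hindlimb factor, had no peak of its own, and the Tbx2 peaks were its nearest, 41.9 kb (control) and 44.9 kb (EZHIP) from the region searched.

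Some of these peaks also held the start of a neighbouring gene, which the lists cannot separate from the member: Gm5607 and the miRNA AC102525.1 at Sox1 (control and K27M), Gm4675 at Sox21, BC006965 at Sox9, 4930588K23Rik at Tbx1 and 2610027K06Rik at Tbx2.

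Tbr1 and Eomes belong to the TBR1 subgroup and mark neurons of the cerebral cortex and their progenitors. Tbr1 had a control peak of 8999 bases (chr2:61641601-61650599) and a K27M peak of 399 bases (chr2:61643601-61643999), with no EZHIP peak. Eomes had 3799 bases in the control (chr9:118385201-118388999) and none in the other lists. The Tbr1 peak was the narrowest at any member, and peaks under 1000 bases numbered 59 of 286 in the K27M list, 109 of 311 in the EZHIP list and 0 of 821 in the control list. The EZHIP peak of Sox1 is the other peak of this kind at these genes. The control list thus had a wider minimum than the other lists, and its part in these 2 peaks was not tested.

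The remaining T-box genes had no peak by the rule: T, the founding member and a factor of the notochord, and Tbx19 of its subgroup, Tbx10, Tbx15, Tbx18 and Tbx22 of the TBX1 subgroup, Tbx3, Tbx4 and Tbx5 of TBX2, Tbx6, and Tbx21, the T-bet factor of T cells. Near Tbx5, a factor of forelimb and heart, peaks of all 3 lists lay upstream and outside the limit. The control peak of 10799 bases (chr5:120247201-120257999) lay 21.7 kb beyond the region searched at Tbx5, and an EZHIP peak of 1799 bases and a K27M peak of 4399 bases lay within it. Near Tbx21, the control list had 7999 bases and the EZHIP list 2599 bases 75.6 and 79.6 kb from the gene region, respectively.

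The families were then set side by side. In the control, 5 of 18 SOX genes (27.8%) and 5 of 16 T-box genes (31.2%) had a peak. In the EZHIP list 2 genes of each family had one, 11.1% of the SOX and 12.5% of the T-box genes. In the K27M list it was 3 SOX genes (16.7%) and 2 T-box genes (12.5%). With Sox1, the SOX numbers became 6, 3 and 4 of 19. The numbers of genes in the 2 families were equal or 1 apart in every list, Sox1 left out. In the K27M list this rests on the Tbr1 peak of 399 bases. With peaks of at least 1000 bases, the K27M shares were 16.7% of SOX and 6.25% of T-box genes. The median control width was 12799 bases over the 5 SOX genes, from 2599 to 24999 bases, and 8999 bases over the 5 T-box genes, from 3799 to 15999 bases, so the ranges overlapped. The median over the 851 protein-coding genes with a control peak was 3799 bases. With 1 library per group and genes that are not replicates, no test was made between the families or between the lists.

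**Figure D2:**
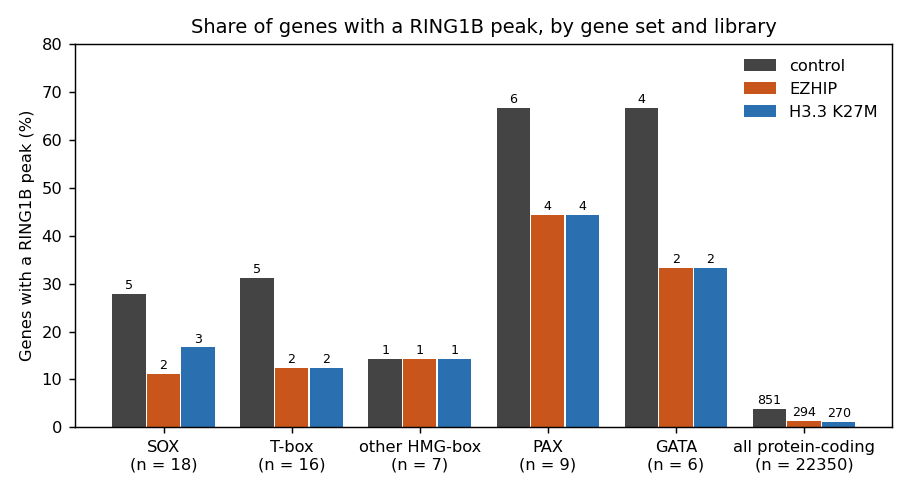
Percentage of genes with a RING1B peak (number of genes above each bar) in the control, EZHIP and K27M libraries, for SOX, T-box, other HMG-box, PAX, GATA and all protein-coding genes. SOX and T-box shares lie near each other in each library, above the share of all protein-coding genes and below the PAX and GATA shares.

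PAX and GATA factors, which also select cell fates, were more often covered in the control. Of 9 PAX genes 6 (66.7%) and of 6 GATA genes 4 (66.7%) had a control peak, against 29.4% of the SOX and T-box genes. EZHIP peaks were found at 4 PAX and 2 GATA genes, and K27M peaks at as many. Of 7 factors with an HMG box outside the SOX family (Tcf7, Tcf7l1, Tcf7l2, Lef1, Hbp1, Cic and Bbx), Lef1 had a peak, in all lists. Mga, the T-box gene outside the list followed here, had none, and neither did the Y-linked Sry, on a chromosome with no peaks in the lists. These differences were not tested.

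The share of control peaks that remained was compared next. Of the 10 members with a control peak, 4 (40.0%) also had an EZHIP peak and 5 (50.0%) a K27M peak. The background was 29.3% and 28.6%, respectively, over the 851 protein-coding genes with a control peak. The members' control peaks were wide compared with the rest, and the share went with control width in all genes. Of 501 genes with a control peak under 5000 bases, 11.8% had an EZHIP peak and 6.79% a K27M peak, and Sox9, Sox12 and Eomes, the 3 members of this class, had none. Of 221 genes in the class of 10000 bases or more, 67.4% had an EZHIP and 71.9% a K27M peak, while 3 and 4 of the 5 annotated members in this class did (Sox1 left out). With 5 or fewer annotated members per width class, these shares cannot be separated from the background.

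Where a member had a peak in the control and in a transduced line, the peak of the transduced line was narrower in 9 of 9 cases, and in 11 of 11 with Sox1. Most genes with both peaks showed the same, 228 of 249 protein-coding genes with EZHIP and 220 of 243 with K27M, so narrowing at every member was close to the background. The width relative to the control had a median of 0.470 for EZHIP, from 0.184 to 0.600 over 4 genes, and of 0.656 for K27M, from 0.0443 to 0.875 over 5 genes. With Sox1 the medians were 0.385 and 0.690. Over all protein-coding genes with both peaks, the medians were 0.417 for EZHIP and 0.647 for K27M, near the values of the SOX and T-box genes. All 11 peaks lay wholly inside the control peak. This was so for 86.0% of EZHIP and 86.9% of K27M peaks over all genes with a control peak. These 2 shares also count peaks wider than the control peak, which cannot lie inside it.

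**Figure D3:**
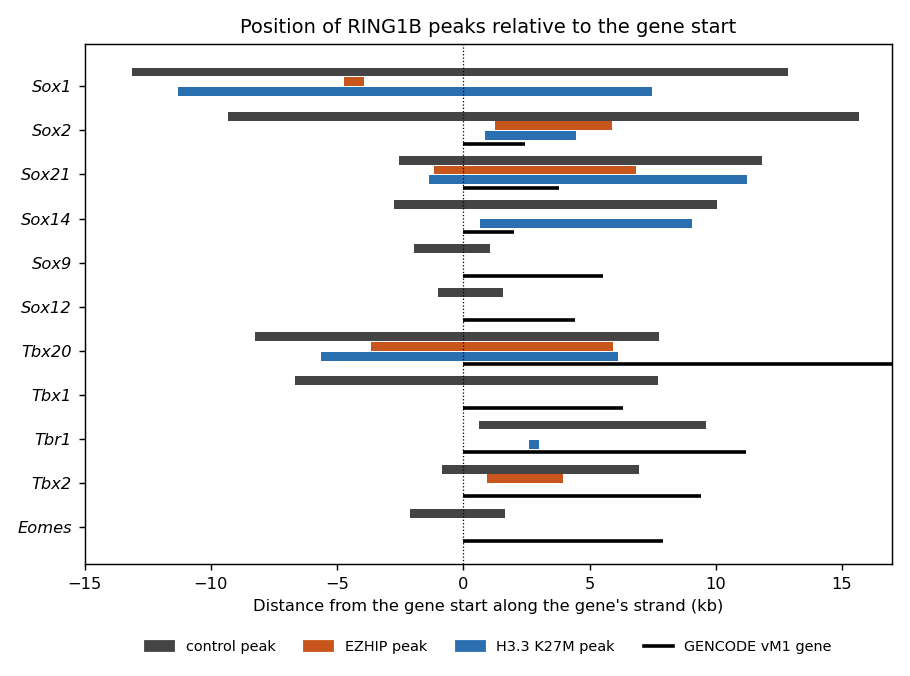
RING1B peaks of the control, EZHIP and K27M libraries as bars around the start of each gene, in kb along the gene's strand, with the GENCODE vM1 gene as a black line (none for Sox1, and cut at the edge for Tbx20). Control peaks cover the start except at Tbr1, while the remaining peaks at Sox2, Sox14, Tbx2 and Tbr1 lie downstream of it.

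Positions relative to the gene start differed between lists. A control peak covered the start at 9 of the 10 members, all except Tbr1, where it began 614 bases downstream of the GENCODE start. RefSeq places the Tbr1 start 1523 bases downstream of the GENCODE start, inside the control peak. An EZHIP peak covered the start at 2 of 4 members and a K27M peak at 2 of 5, in each case Sox21 and Tbx20. Including Sox1, the K27M list covered the start at 3 of 6. Over all protein-coding genes with a peak, the start was covered at 74.1% in the control, 45.2% in the EZHIP list and 61.5% in the K27M list.

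As examples of what the remaining peaks cover, the central 200 bases of the K27M peaks at Tbr1 and Sox2 are printed from NCBIM37, again with CpGs in capitals.

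Tbr1 (chr2:61643701-61643900, plus strand): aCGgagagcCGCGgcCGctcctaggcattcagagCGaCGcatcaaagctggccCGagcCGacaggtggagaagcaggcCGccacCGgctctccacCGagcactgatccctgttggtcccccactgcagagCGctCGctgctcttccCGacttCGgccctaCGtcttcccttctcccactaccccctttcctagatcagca
Sox2 (chr3:34551501-34551700, plus strand): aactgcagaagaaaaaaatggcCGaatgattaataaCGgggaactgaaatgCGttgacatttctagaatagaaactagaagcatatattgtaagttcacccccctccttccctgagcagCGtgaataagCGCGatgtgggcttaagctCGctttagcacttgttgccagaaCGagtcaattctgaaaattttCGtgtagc

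The Tbr1 piece lies in an intron, from 2714 to 2913 bases downstream of the GENCODE start, and holds 16 CpGs at 64.5% G and C. The Sox2 piece lies just past the end of the gene, from 2574 to 2773 bases downstream of its start, and holds 9 CpGs at 42.5% G and C. The printed Sox2 promoter, at 72.0% G and C, was covered in the control alone. These examples do not stand for all remaining peaks. The centres of the others ranged from 2 CpGs (Tbx2, EZHIP) to 16 (Sox14, K27M). Their G and C ranged from 35.5% (Sox1, K27M) to 62.0% (Tbx20, K27M).

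CpG-island-like sequence was measured over each control peak, in the part still covered by a peak of a transduced line and in the part no longer covered. At Sox21 all 3200 island bases stayed inside the peaks of both lines, and the parts no longer covered held none. At Tbx20 the K27M peak kept all 2200 island bases and the EZHIP peak 90.9% of them. At Sox14 the K27M peak kept 75.0%. Sox2 and Tbx2 differed from these. The EZHIP peak at Sox2 was island-like over 8.70% of its bases and the uncovered part over 27.9%, with 22.2% and 24.8% for K27M. At Tbx2 it was 10.0% inside the EZHIP peak and 68.8% outside. At Sox14, the EZHIP peak that lies outside the limit but inside the control peak was island-like over 45.0% of its bases, and the rest of the control peak over 28.7%. Counting it and Sox1, the covered part held the higher share at 4 of 6 control peaks with EZHIP and at 5 of 6 with K27M. By CpGs per kb the count with EZHIP was 2 of 6, Sox21 and Tbx20, since the covered part was the lower one at Sox1 (31.3 against 36.1 CpGs per kb) and at Sox14 (31.5 against 36.0). With K27M it was 6 of 6 by this measure, Sox2 included (35.3 against 30.7). The result for EZHIP thus depends on the measure. Over all control peaks that were covered in part, the covered part held the higher share of island-like bases in 50.7% of 217 for EZHIP and in 72.7% of 220 for K27M, and the higher number of CpGs per kb in 55.3% and 76.8%, respectively.

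**Figure D4:**
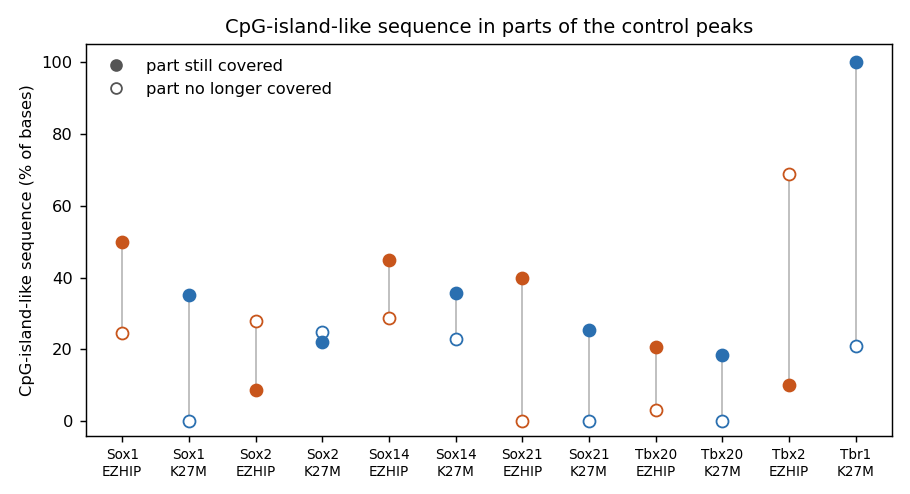
Percentage of bases that are CpG-island-like in the part of the control peak still covered (filled) and no longer covered (open) by an EZHIP (orange) or K27M (blue) peak, for each gene and library with a peak inside the control peak. The filled point is the higher one except at Sox2 in both lines and at Tbx2 with EZHIP.

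CpG number in the 1000 bases around the start was compared as a feature that the choice of genes did not use. The GENCODE start was used, and 19 of the 32 RefSeq starts placed at annotated members lay within 200 bases of it. The RefSeq starts of Sox5 and Tbr1 lay 834871 and 1523 bases downstream of it, so other starts could give other numbers. Over all protein-coding genes, the median was 66 with a control peak and 39 without. Over the members it was 66.5 with a control peak, from 17 at Tbr1 to 128 at Sox12, and 55.5 without, from 5 at Tbx22 to 112 at Sox30. T-box genes had a median of 55 with and 29 without a control peak, whereas SOX genes had 76 with and 75 without, and the ranges overlapped in both families. Of the members without a control peak, 8 of 13 SOX genes and 2 of 11 T-box genes lay above 66 CpGs, the median of all protein-coding genes with one, as did 26.8% of all protein-coding genes without one. The members above it were Sox3, Sox5, Sox7, Sox8, Sox11, Sox13, Sox18 and Sox30, and Tbx3 and Tbx21.

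**Figure D5:**
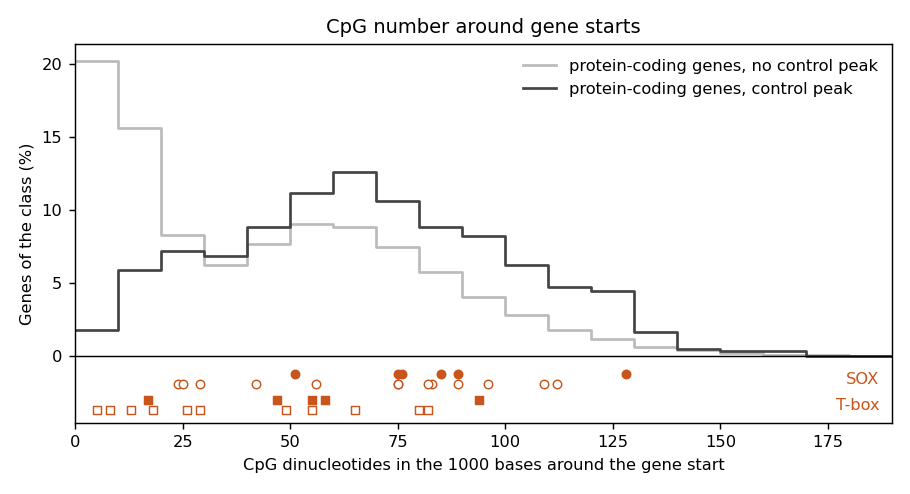
Distribution of the number of CpGs in the 1000 bases around the gene start over protein-coding genes with (dark line) and without (grey line) a control RING1B peak, in percent of each class. Points below the axis are the SOX (circles) and T-box (squares) genes, filled with and open without a control peak. Open and filled SOX points overlap, and the open T-box points reach the lowest value, 5 at Tbx22.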

How the data were processed

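The authors aligned reads with Bowtie 1.0.0 to mm9 and a reference genome of another species and called broad peaks with MOSAiCS-HMM in each library, per the labels and the methods of the study. The deposited lists hold chromosome, start and end on bins of 200 bases, with no count, signal or p-value. The methods state a minimum peak size of 1000 bases, but EZHIP and K27M peaks down to 399 bases are listed. Positions are printed 1-based with both ends included, and width is the number of bases from the first to the last.

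Every peak ended within its NCBIM37 chromosome. Genes came from GENCODE vM1 (the longest record where a name had several, as for Sox4), with an overlap of at least 1 base. CpG-island-like sequence was a window of 500 bases, in steps of 100, that reached 55% G and C and 0.65 for observed over expected CpGs. RefSeq promoters were given for 25 members, and each matched NCBIM37 at a single place per start. Python 3.11.15, numpy 2.4.6, scipy 1.17.1 and matplotlib 3.10.9 were used. The assignment was tested on simulated data.

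The members and lists were chosen with earlier results of these data known. Named were all members, and promoters by class as given in the text, restricted to genes with a RefSeq promoter. With 1 library per group no p-value was computed. Alternatives concerned the gene region, the minimum overlap and width, peak number, merging and autosomes. The inclusion of Sox1, by sequence, was chosen after seeing the data.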

Additional observations from a re-analysis of the deposited data

How the results depend on the processing

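The 13 values compared were recomputed under up to 14 alternatives, which gave 160 values. Of these, 154 stayed within the limits used (1.5 times for numbers and ratios, the 95% Wilson interval for shares), 6 moved outside them and 0 changed direction. Only the median width ratios could change direction, so the 0 says nothing about the numbers and shares. The intervals are wide because so few genes carry a peak. When a peak had to lie over the gene start itself, 2 members had an EZHIP peak and 2 a K27M peak, the share of SOX genes with a K27M peak was 5.56%, and 22.2% of the members with such a control peak had a K27M peak and as many an EZHIP peak. By construction this start rule drops the remaining peaks at Sox2, Sox14, Tbx2 and Tbr1. With equal numbers of the widest peaks in each list, these shares were 71.4% for K27M and 57.1% for EZHIP, above the 50.0% and 40.0% reported. With peaks of at least 5000 bases, 2 members had a peak with EZHIP and 3 with K27M. The control number ranged from 7 to 11 of the members, and the median width relative to the control from 0.385 to 0.578 for EZHIP and from 0.656 to 0.806 for K27M. A minimum of 1000 bases removed the K27M peak at Tbr1, which left 4 members with such a peak. A limit of 10000 bases from the start added the EZHIP peak at Sox14. Depth is unknown, so a missing peak says only that none was listed.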

Other observations

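Lef1, an HMG-box effector of WNT signalling outside the SOX family, had peaks in all 3 lists. The control peak spanned 6799 bases (chr3:130808401-130815199) and the K27M peak 4799 bases, and both lay over the Lef1 start. The EZHIP peak spanned 1399 bases, ended before the start (at -990 bases) and held 0 island-like bases, against 3599 in the control peak. Among the PAX genes, Pax2 had a control peak of 29999 bases, a K27M peak of 20599 bases and EZHIP peaks of 399 bases. Pax5, Pax6 and Pax7 also had wider K27M than EZHIP peaks, at 17799 against 3399 bases, 30199 against 9399 bases and 12999 against 8999 bases. Pax3, with a control peak of 30199 bases, and Pax9, with 4399 bases, had no peak in either transduced line. At Gata3 the control peak had 15999 bases and the K27M peak 1199 bases, with no EZHIP peak, and at Gata4 the widest peaks had 41799 bases in the control, 12799 with K27M and 4999 with EZHIP. Gata6 went the other way, with 11399 bases in the control, 399 with EZHIP and no K27M peak.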
